A study of Mus musculus with 8 samples.

Results

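Macrophages that take up large amounts of lipid and cell debris, in fat tissue, atherosclerotic plaque and the demyelinated brain, share a set of genes by which they are recognised. The 8 genes described here, Gpnmb, Spp1, Trem2, Tyrobp, Lgals3, Cd9, Fabp5 and Lpl, are central members of that set, and were followed in mouse bone-marrow-derived dendritic cells (BMDC) that had engulfed dying cancer cells. They were chosen by gene symbol. All 8 were among the 55487 gene identifiers of the count table and among the 15411 genes that passed the filter on low counts. The RNA-seq compared 4 libraries of untreated wild-type BMDC with 4 libraries of wild-type BMDC that carried ferroptotic cargo (BMDC-fer). Both groups came from immunocompetent C57BL/6 mice, which the study's methods give as female and 6 to 8 weeks old, and from bone marrow cultured for 10 days with GM-CSF. For BMDC-fer, Jurkat cells, an established human T-cell leukemia line, were killed with 0.5 µM ML162 for 14 h and co-cultured with the BMDC for 4 h, and the BMDC that had engulfed them were sorted. ML162 blocks GPX4, the enzyme that removes lipid peroxides from membranes, and so triggers ferroptosis, a death by lipid peroxidation. A sort is described for BMDC-fer and not for the untreated BMDC, and there is no group that met the dying cells without engulfing them, so engulfment, co-culture and sort cannot be told apart. Neither do the values distinguish fewer cells of a type from less RNA per cell.

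TREM2 is a surface receptor for lipids, lipoproteins and cell debris. It has no signalling tail of its own and signals through the adaptor TYROBP (DAP12), which recruits the kinase SYK. Cells that carry the programme also express GPNMB, a glycoprotein of lysosomes and the cell surface; SPP1 (osteopontin), a secreted ligand of integrins and CD44; LGALS3 (galectin-3), a lectin that gathers on damaged lysosomes; CD9, a tetraspanin; FABP5, a carrier of fatty acids in the cytosol; and LPL, the secreted lipase that frees fatty acids from lipoproteins. Macrophages in vivo depend on TREM2 for much of this programme, and several of its genes, Gpnmb among them, are targets of the lysosomal transcription factors of the MiT/TFE family.

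The sequences before the starts of Spp1, Gpnmb and Trem2 are shown because Spp1 and Gpnmb were the most abundant of the 8 transcripts by counts and Trem2 is the receptor on which the programme centres. Each is the 250 bases before a RefSeq start on the plus strand of GRCm38, a stretch that holds no annotated exon. RefSeq promoter windows were matched for 5 of the 8 genes, and those of Tyrobp, Fabp5 and Lpl were not used here. Capitals mark matches, on either strand, to the letters searched: TGANTCA for AP-1, CACGTG for the E-box, TCATGTG for the M-box of MiT/TFE factors, GAGGAAG for PU.1, and TATAAA for the TATA box. The DR1 element of nuclear receptors was searched too. These motifs were chosen after the expression values had been seen.
Spp1, chr5:104434861-104435110: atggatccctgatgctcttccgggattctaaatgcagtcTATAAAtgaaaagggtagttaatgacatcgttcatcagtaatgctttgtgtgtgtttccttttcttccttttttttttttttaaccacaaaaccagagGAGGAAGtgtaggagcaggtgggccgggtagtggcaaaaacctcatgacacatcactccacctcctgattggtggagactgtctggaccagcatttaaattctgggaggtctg
Gpnmb, chr6:49036268-49036517: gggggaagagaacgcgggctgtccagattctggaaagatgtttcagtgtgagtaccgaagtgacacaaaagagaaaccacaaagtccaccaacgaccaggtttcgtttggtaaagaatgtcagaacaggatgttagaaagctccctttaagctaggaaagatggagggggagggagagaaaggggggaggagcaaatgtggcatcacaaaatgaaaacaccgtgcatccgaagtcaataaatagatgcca
Trem2, chr17:48346151-48346400: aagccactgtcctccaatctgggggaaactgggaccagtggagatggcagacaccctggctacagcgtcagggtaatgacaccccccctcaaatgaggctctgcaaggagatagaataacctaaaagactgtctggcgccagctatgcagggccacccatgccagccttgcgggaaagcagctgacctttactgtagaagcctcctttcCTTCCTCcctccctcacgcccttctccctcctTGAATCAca
In the Spp1 window the TATAAA letters lie 211 to 206 bases and the GAGGAAG letters 113 to 107 bases before the start. The Trem2 window holds TGAATCA 9 to 3 bases before the start and CTTCCTC, which is GAGGAAG on the other strand, 41 to 35 bases before it. None of the 6 motifs occurs in these letters of the Gpnmb window. Among 32851 such windows of the genome, 6.75% hold the AP-1 letters, 10.61% those of PU.1, 12.37% those of the TATA box, 6.02% the E-box, 3.25% the M-box and 0.03% DR1. A match is a description of the letters, and binding was not measured.

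The genes lie apart from one another in the genome (GENCODE M21, GRCm38). Gpnmb is at chr6:49036546-49070929, Spp1 at chr5:104435118-104441050, Trem2 at chr17:48346401-48354147, Tyrobp at chr7:30413760-30417585, Lgals3 at chr14:47367751-47386160, Fabp5 at chr3:10012548-10016607 and Lpl at chr8:68880491-68907448, all on the plus strand, and Cd9 is on the minus strand at chr6:125460266-125494791. Of the 50-base words of its longest transcript, on either strand, Cd9 shares 15.52% with other genes, mostly the opposite-strand Gm26728. Spp1 shares 9.05% with the overlapping same-strand Gm42793. Fabp5 shares 4.42% with pseudogene copies such as Gm6166, and Lpl shares 1.77%. How far this affects the values of these genes is not known and was not tested. The sources used here do not give how strand and ambiguous reads were handled. No word was shared for Gpnmb, Trem2, Tyrobp and Lgals3.

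Libraries held 39326672 to 50532209 counts each, and a floor of 3 counts corresponded to 0.0607 to 0.0785 CPM, which are counts scaled to TMM-adjusted library size, a limit for counting error alone, as reads that carry no molecular identifier need not be separate molecules. In both groups, replicates 1 and 2 stood apart from replicates 3 and 4 across all genes, a split that is seen in the data and for which the labels give no batch. The group differences of Gpnmb, Spp1, Trem2, Tyrobp, Lgals3, Cd9, Fabp5 and Lpl are therefore given over all libraries and within each of these replicate pairs. So are the numbers of called genes for most gene lists. For many single genes named from those lists, the fold change is given over all libraries only. The study describes the 4 samples as independently collected, but libraries within a replicate pair were so alike that the p-values within pairs measure a spread that may be partly technical. Of the markers of the labelled cell type, Itgax (CD11c) was at 748 to 1407 CPM in every library, and the 20 dendritic cell markers summed to 10042 to 22993 CPM in BMDC and 4005 to 11304 CPM in BMDC-fer.

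Over all libraries, 1 of the 8 genes was called higher in BMDC-fer, Fabp5, and 0 were called lower, where a call needs an adjusted p up to 0.05 together with a log2 fold change of at least 0.58 in size (quasi-likelihood test of edgeR, Benjamini-Hochberg adjustment over all 15411 genes). Over all tested genes, 3.47% were called higher and 5.91% lower. With the replicate number as a block, 0 of the 8 genes were called, beside 4.85% of all tested genes called higher and 8.13% lower, and DESeq2 called 2, Fabp5 and Lgals3, both higher, beside 4.89% higher and 8.4% lower. At an unadjusted p under 0.05, 2 of the 8 genes were higher over all libraries and 6 with the block in edgeR, and 0 were lower in either fit. The fitted difference was positive for all 8 genes, with a median log2 fold change of 0.46 against 0.00 over all tested genes. Within the replicate pairs the picture divided. In replicates 1 and 2, 8 of the 8 genes were called higher, against a background of 9.36%, with a median log2 fold change of 1.05. In replicates 3 and 4, 0 of the 8 were called in either direction, against backgrounds of 16.8% higher and 16.2% lower, with a median of 0.15, and at an unadjusted p under 0.05 edgeR gave 2 higher and 0 lower.

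**Figure D1:**
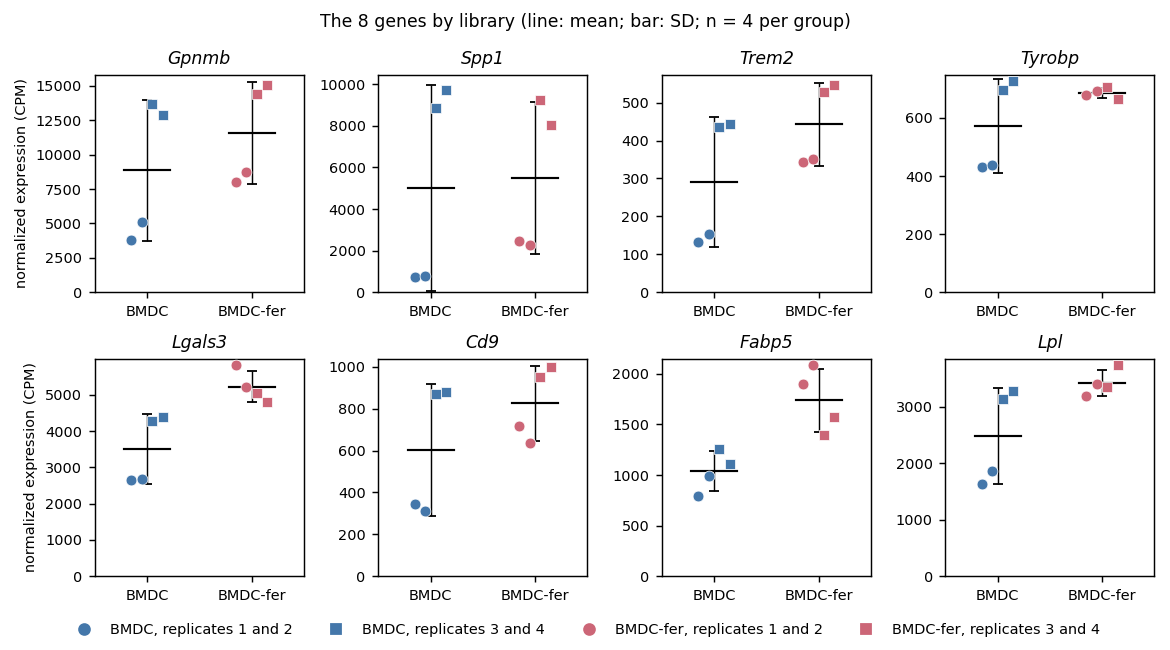
CPM of the 8 genes (vertical axes, linear from 0) in each library of BMDC and BMDC-fer, with replicates 1 and 2 as circles and replicates 3 and 4 as squares, lines at the mean and bars of 1 SD (n = 4 per group). For Spp1, the BMDC libraries of replicates 1 and 2 sit at 709.9 and 764 CPM and those of replicates 3 and 4 at 8859 and 9731 CPM, while for Lgals3 and Fabp5 every BMDC-fer library lies above every BMDC library.

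Trem2, the receptor, was at 131, 154, 436 and 444 CPM in the 4 BMDC libraries, in the order of their replicate numbers here and in what follows, and at 344, 350.3, 528 and 547 CPM in the BMDC-fer libraries. Each BMDC-fer library was above the BMDC library of the same number, but BMDC replicates 3 and 4 were above BMDC-fer replicates 1 and 2, so the groups overlapped. Over all libraries Trem2 was not called, its log2 fold change being 0.60 with a standard error (SE) of 0.42 (edgeR adjusted p = 0.362). It was 2.43-fold higher in BMDC-fer in replicates 1 and 2 (log2 fold change 1.28, SE 0.09, edgeR adjusted p = 5.51e-05). In replicates 3 and 4 the log2 fold change was 0.29 (edgeR adjusted p = 0.0237), which is under the fold threshold. Its level moved within untreated BMDC as well, where the mean of replicates 3 and 4 was 3.08 times that of replicates 1 and 2.

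Tyrobp, the signalling adaptor, was at 429.9, 437, 697 and 726 CPM in BMDC and at 679.7, 692, 706 and 664 CPM in BMDC-fer. The BMDC-fer libraries lay within a narrow band, at 686 ± 17.7 CPM (SD, n = 4) against 572 ± 161 CPM (SD, n = 4) in BMDC. BMDC replicates 1 and 2 lay below that band and replicates 3 and 4 within or above it. Over all libraries the log2 fold change was 0.26 (SE 0.19, edgeR adjusted p = 0.396). In replicates 1 and 2 it was 0.66 (edgeR adjusted p = 0.000338), a 1.58-fold difference and the smallest of the 8, and in replicates 3 and 4 it was -0.05 (edgeR adjusted p = 0.584).

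Gpnmb, the lysosomal glycoprotein, ranked 6th of all tested genes by mean CPM. It was at 3765, 5123, 13701 and 12857 CPM in BMDC and at 8003, 8759, 14392 and 15074 CPM in BMDC-fer. BMDC-fer exceeded BMDC at every replicate number, and the step between replicate pairs within BMDC, 2.99-fold, was larger than the 1.89-fold difference between the groups in replicates 1 and 2. The log2 fold change was 0.38 over all libraries (SE 0.45, edgeR adjusted p = 0.594), 0.92 in replicates 1 and 2 (edgeR adjusted p = 0.00138) and 0.15 in replicates 3 and 4 (edgeR adjusted p = 0.411).

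Spp1, the secreted ligand, was the most variable of the 8. It was at 709.9, 764, 8859 and 9731 CPM in BMDC and at 2439, 2249, 9249 and 8042 CPM in BMDC-fer. In replicates 1 and 2, BMDC-fer was 3.18-fold above BMDC (log2 fold change 1.67, SE 0.11, edgeR adjusted p = 5.51e-05), the largest difference among the 8 genes, whereas untreated BMDC differed 12.6-fold between the replicate pairs. The engulfing cells of replicates 1 and 2 thus stood at 0.252 times the level of the untreated cells of replicates 3 and 4. In replicates 3 and 4 the log2 fold change was -0.10 (edgeR adjusted p = 0.450), and over all libraries it was 0.13 with an SE of 0.91 (edgeR adjusted p = 0.935), or 0.78 with the replicate block (edgeR adjusted p = 0.223). The direction of that pooled value turned when BMDC replicate 1 or 2 or BMDC-fer replicate 3 or 4 was left out, within a range of -0.24 to 0.68 over the 8 fits without 1 library.

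Lgals3, the galectin of damaged lysosomes, was at 2650.3, 2670.3, 4287 and 4396 CPM in BMDC and at 5833, 5223, 5052 and 4805 CPM in BMDC-fer. The groups did not overlap, at 5228 ± 438 CPM against 3501 ± 972 CPM (SD, n = 4 each), and the two-sided exact permutation test on log2(CPM + 0.05) gave p = 0.0286, the smallest that 4 against 4 allow. All BMDC-fer libraries were above all BMDC libraries for 11.3% of the tested genes. The log2 fold change of 0.58 (SE 0.22) had an adjusted p of 0.113 in edgeR and of 0.0494 in DESeq2, where its 0.58 just passed the fold threshold as well. It was 1.06 in replicates 1 and 2 (edgeR adjusted p = 0.000117) and 0.18 in replicates 3 and 4 (edgeR adjusted p = 0.131).

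Cd9, the tetraspanin, was at 343, 314, 870.5 and 882 CPM in BMDC and at 716, 635, 952 and 1000.2 CPM in BMDC-fer. The groups overlapped as they did for Trem2, with untreated replicates 3 and 4 above engulfing replicates 1 and 2. The log2 fold change was 0.46 over all libraries (SE 0.37, edgeR adjusted p = 0.436), 1.04 in replicates 1 and 2 (edgeR adjusted p = 0.000108) and 0.16 in replicates 3 and 4 (edgeR adjusted p = 0.178).

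Fabp5, the fatty acid carrier, was at 791, 989, 1259 and 1114 CPM in BMDC and at 1901, 2085, 1393 and 1577 CPM in BMDC-fer. Every BMDC-fer library was above every BMDC library (1739 ± 312 against 1038 ± 198 CPM, SD, n = 4 each, two-sided exact permutation p = 0.0286). It was the gene called over all libraries, where its log2 fold change was 0.74 (SE 0.19, edgeR adjusted p = 0.0390). That call was lost with the replicate block (log2 fold change 0.75, edgeR adjusted p = 0.0629) and in 7 of the 8 fits without 1 library, where the edgeR adjusted p ran from 0.0503 to 0.0910. It was kept without BMDC-fer replicate 3 (edgeR adjusted p = 0.0466) and with the replicate pair as a covariate (log2 fold change 0.74, edgeR adjusted p = 0.0184), an alternative chosen after seeing the data. Fabp5 had the smallest step within untreated BMDC, 1.33-fold between replicate pairs, and in BMDC-fer the step ran the other way, replicates 3 and 4 being at 0.745 times replicates 1 and 2. Its log2 fold change was 1.16 in replicates 1 and 2 (edgeR adjusted p = 0.000280) and 0.32 in replicates 3 and 4 (edgeR adjusted p = 0.0594).

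Lpl, the lipase, was at 1634, 1869, 3147 and 3291 CPM in BMDC and at 3199, 3414, 3351 and 3752 CPM in BMDC-fer. The groups overlapped by a single pair of libraries, BMDC replicate 4 being above BMDC-fer replicate 1, and the two-sided exact permutation test gave p = 0.0571. The log2 fold change was 0.46 over all libraries (SE 0.24, edgeR adjusted p = 0.237), 0.92 in replicates 1 and 2 (edgeR adjusted p = 0.000320) and 0.14 in replicates 3 and 4 (edgeR adjusted p = 0.283). As for Tyrobp, the BMDC-fer libraries were alike in both replicate pairs (3429 ± 233 CPM, SD, n = 4), and untreated BMDC of replicates 1 and 2 lay apart below them.

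The difference between the replicate pairs was then tested itself. The split was seen in these same data, so the test is a description of it. Its p-values also rest on the spread within replicate pairs, which may be partly technical. For 8 of the 8 genes the group effect in replicates 3 and 4 was the smaller, with an adjusted p up to 0.05 (interaction term of the quasi-likelihood fit in edgeR, Benjamini-Hochberg adjustment), against a background of 18.3% of all tested genes in that direction and 37.8% in either. The difference of the log2 fold changes was -1.77 for Spp1 (adjusted p = 0.000118), -0.99 for Trem2, -0.88 for Cd9, -0.87 for Lgals3, -0.84 for Fabp5, -0.77 for Gpnmb and Lpl, and -0.72 for Tyrobp, and the adjusted p was at most 0.0166, for Gpnmb. The term for Gpnmb lost significance without BMDC replicate 3 or 4 or BMDC-fer replicate 3 or 4 (edgeR adjusted p = 0.0748, 0.0526, 0.0674 and 0.0522), and the other 7 kept it in each of the 8 fits without 1 library. In untreated BMDC, replicates 3 and 4 were above replicates 1 and 2 for each of the 8 genes, between 1.33-fold for Fabp5 and 12.6-fold for Spp1. BMDC-fer of replicates 1 and 2, set beside untreated BMDC of replicates 3 and 4, stood at 0.252 times for Spp1, 0.631 for Gpnmb, 0.771 for Cd9, 0.790 for Trem2, 0.964 for Tyrobp, 1.03 for Lpl, 1.27 for Lgals3 and 1.68 for Fabp5. Together the 8 genes held 1.15%, 1.38%, 3.21% and 3.18% of all counts in the BMDC libraries, and 2.26%, 2.25%, 3.44% and 3.44% in those of BMDC-fer.

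**Figure D2:**
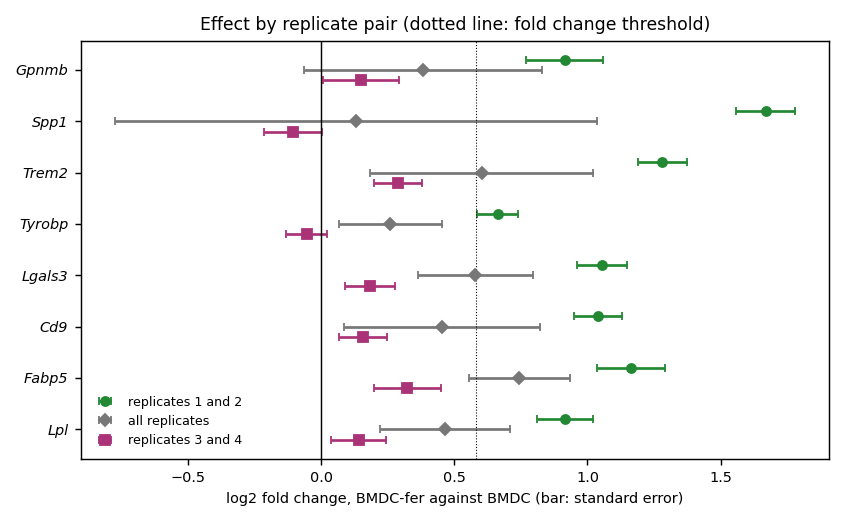
Log2 fold change of BMDC-fer against BMDC (horizontal axis) for each of the 8 genes within replicates 1 and 2, within replicates 3 and 4 and over all libraries, with standard errors from edgeR as bars. All 8 values of replicates 1 and 2 lie between 0.66 and 1.67, and those of replicates 3 and 4 between -0.10 and 0.32.

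Per kilobase of exon, the mean over all 8 libraries was 3189 CPM per kb for Spp1, 2349 for Lgals3, 1567 for Gpnmb, 943 for Tyrobp, 389 for Fabp5, 349 for Cd9, 282 for Lpl and 74.2 for Trem2, on union exon lengths of GENCODE M21. That length counts every annotated exon, 10478 bases for Lpl and 2044 for Cd9. Their longest transcripts held only 4066 and 1179 words of 50 bases. The order of the genes therefore depends in part on the annotation and may differ on transcript length. On this measure the receptor was the least abundant of the 8 and its adaptor stood well above it. Some neighbours in this order did not separate. Spp1 was above Lgals3 in 2 of 4 BMDC and 2 of 4 BMDC-fer libraries, and Fabp5 was above Cd9 in the same numbers. Cd9 was above Lpl in 3 of 4 libraries of each group. Lgals3 was above Gpnmb, Tyrobp above Fabp5, and Lpl above Trem2 in all 8 libraries.

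Across the 8 libraries the genes followed each other to different degrees, as a description of libraries that fall into replicate pairs and groups. Pearson's r of log2(CPM + 0.05) ran from 0.35 between Spp1 and Fabp5 to 0.99 between Trem2 and Cd9. Trem2 and Tyrobp, receptor and adaptor, had an r of 0.94. Among 8917 genes with a mean of at least 10 CPM, those whose pattern was most like Spp1 were Sgk1, Grina and Sqor (r = 0.998, 0.998 and 0.995), and among those most like Lpl were Mgst3 and Syngr1 (0.994 and 0.990). Gpnmb was followed most closely by Aldh2, Fam234a and Slc35a1, Trem2 by Tmem50a, Plod3 and Klf10, and Cd9 by Zpr1, Fth1 and Tmem50a. For Tyrobp these genes were Plaur, Ccl6 and Capg, for Lgals3 Gm32089, Atf3 and P2ry2, and for Fabp5 Pmp22, Tspan4 and Ap1s1.

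Other genes of the lipid-associated macrophage and disease-associated microglia programmes were measured from a written list of 35, all of them tested. Over all libraries 6 were called higher and 1 lower, and the median log2 fold change was 0.55. For this and the lists that follow, the shares of all tested genes were 3.47% called higher and 5.91% lower. They were 9.36% and 12.9% in replicates 1 and 2, and 16.8% and 16.2% in replicates 3 and 4. Plin2, the coat protein of lipid droplets, was at 210.0, 215, 618 and 644 CPM in BMDC and at 1013, 959, 1489 and 1393 CPM in BMDC-fer, with no overlap (log2 fold change 1.52, edgeR adjusted p = 0.0445). Msr1, a scavenger receptor, rose from 404 to 525 CPM in BMDC to 909 to 1127 CPM in BMDC-fer (log2 fold change 1.16, edgeR adjusted p = 0.00344). Igf1, a growth factor, and Clec7a (Dectin-1) rose by log2 fold changes of 1.16 and 1.06. In contrast to the 8 genes, Msr1 and Clec7a were called in both replicate pairs, with log2 fold changes of 1.14 and 1.19 for Msr1 and of 0.89 and 1.18 for Clec7a. The highest value of the list, 1.83 for the cholesterol 25-hydroxylase gene Ch25h, was not called (edgeR adjusted p = 0.0721). Of the 35 genes, 25 were called higher and 2 lower in replicates 1 and 2, and 8 higher and 1 lower in replicates 3 and 4. With the replicate block 11 were called higher and 2 lower, and with a library left out 3 to 5 higher.

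A list of 38 tested genes of TREM receptors and TYROBP signalling did not move one way. It also holds widely used signalling genes such as Syk and Grb2. Of the 38, 2 were called higher and 5 lower, beside 3.47% and 5.91% of all tested genes. The median log2 fold change was 0.05. Trem1, a receptor that uses the same adaptor and amplifies inflammation, fell from 36.2 to 59.6 CPM in BMDC to 10.7 to 19.4 CPM in BMDC-fer (log2 fold change -1.76, edgeR adjusted p = 0.00399), and it fell in both replicate pairs (-1.53 and -1.96). Treml2 (-1.15) and Pik3cg, the catalytic subunit of a PI3 kinase of leukocytes (-1.19), fell as well. Cd300lb, a lipid-binding receptor that can signal through TYROBP, rose (log2 fold change 1.11, edgeR adjusted p = 0.0226), from 51.7 to 104 CPM to 151 to 173 CPM. Leaving out 1 library gave 1 to 5 genes called lower. Within the pairs, 8 were called higher and 6 lower in replicates 1 and 2, against 4 and 6 in the other pair. The backgrounds were 9.36% higher and 12.9% lower in replicates 1 and 2, and 16.8% and 16.2% in replicates 3 and 4.

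Of 9 tested genes, the osteopontin receptors of the integrin family, Cd44 and the Spp1 neighbours Pkd2 and Abcg2, 1 was called higher, Itga5, an integrin subunit (81.2 to 96.2 CPM against 132 to 183 CPM, log2 fold change 0.87, edgeR adjusted p = 0.00564), and 0 lower (1 at an unadjusted p under 0.05, and 1 called by DESeq2). There were 3 higher and 0 lower in replicates 1 and 2, whereas replicates 3 and 4 gave 2 and 2. The genes of the same protein family as Spp1, namely Ibsp, Dmp1, Dspp and Mepe, did not pass the filter on low counts. In a list of 7 tested genes, the galectins, Lgals3 included, together with the galectin-3 binding protein gene Lgals3bp, 0 were called by edgeR. The median log2 fold change was 0.42. At an unadjusted p under 0.05 there were 4 higher and 0 lower, and DESeq2 called 1 higher. EdgeR called 4 higher and 1 lower in replicates 1 and 2 and 0 in replicates 3 and 4, where 2 were higher at an unadjusted p under 0.05. Among 24 tetraspanins and partners of CD9, 3 were called higher, Cd151 (1.15), Tspan14 (0.91) and Tspan4 (0.70), and 5 lower, led by Tspan2 (-2.83). The balance turned between the replicate pairs, with 11 higher and 6 lower and a median of 0.39 in replicates 1 and 2, and 2 higher and 7 lower and a median of -0.25 in replicates 3 and 4. Among 4 tested fatty acid binding proteins, Fabp5 was the 1 called higher, and with the replicate block this was 0 (1 at an unadjusted p under 0.05). EdgeR called 3 of the 4 higher in replicates 1 and 2 but 0 in replicates 3 and 4 (1 higher and 1 lower at an unadjusted p under 0.05).

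Around the lipase, 20 genes of lipoprotein lipase handling and lipoprotein uptake were tested, with 4 called higher, 0 lower and a median log2 fold change of 0.31. These were Angptl4, an inhibitor of LPL (2.22), the oxidized-LDL receptor gene Olr1 (1.32, from 11.6 to 28.2 CPM to 29.0 to 67.6 CPM), Msr1, and Lipa, the lysosomal acid lipase (0.64). Without 1 library, 1 to 4 were called. At an unadjusted p under 0.05 in edgeR 1 was lower, and DESeq2 and the replicate block each called 1 lower. The lowest value of the list was -2.40, for Lipg. Angptl4 was at a low level, with 54 to 146 counts in the BMDC libraries and 257 to 769 in those of BMDC-fer. The first pair, replicates 1 and 2, gave 8 higher and 1 lower, and the second gave 6 and 1. Among 24 tested lipid droplet genes, 2 were called higher, Plin2 and Soat1, which esterifies cholesterol (0.75, edgeR adjusted p = 0.00727), and 1 lower, Soat2 (-3.60), and the median was 0.02. The call of Soat2 was lost with upper-quartile factors. Soat2 had 59, 34, 661 and 667 counts in the BMDC libraries and 56, 20, 19 and 28 in those of BMDC-fer. Its fall thus lay mostly in replicates 3 and 4, and its level was low in replicates 1 and 2 of both groups. Replicates 1 and 2 gave 4 higher and 4 lower, whereas the other pair gave 4 and 6.

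A list around the MiT/TFE transcription factors of lysosomal genes gave 6 called higher of 15 tested and 0 lower. Of all tested genes, 3.47% were called higher. Besides the factors, the list holds regulators of them, such as Flcn and Fnip2, and other transcription factors, namely Usf1, Usf2 and Mlx. The count is thus not one of MiT/TFE factors alone. The median log2 fold change of the list was 0.26. At an unadjusted p under 0.05 in edgeR, 8 were higher and 2 lower, and the lowest value was -0.66, for Fnip1. Tfeb was at 33.5, 39.8, 36.5 and 36.7 CPM in BMDC and at 54.4, 62.8, 57.5 and 61.1 CPM in BMDC-fer, with no overlap and hardly any difference between replicate pairs (log2 fold change 0.69, edgeR adjusted p = 0.00577, and 0.68 and 0.70 within the pairs). Fnip2, a partner of folliculin (0.88), Tfec (0.78) and Mitf (0.77) rose as well, as did Flcn (0.62) and Mlx (0.61), and 6 were called higher with the replicate block, 6 in replicates 3 and 4, where 1 was lower, and 5 in replicates 1 and 2. Leaving out 1 library gave 4 to 7.

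**Figure D3:**
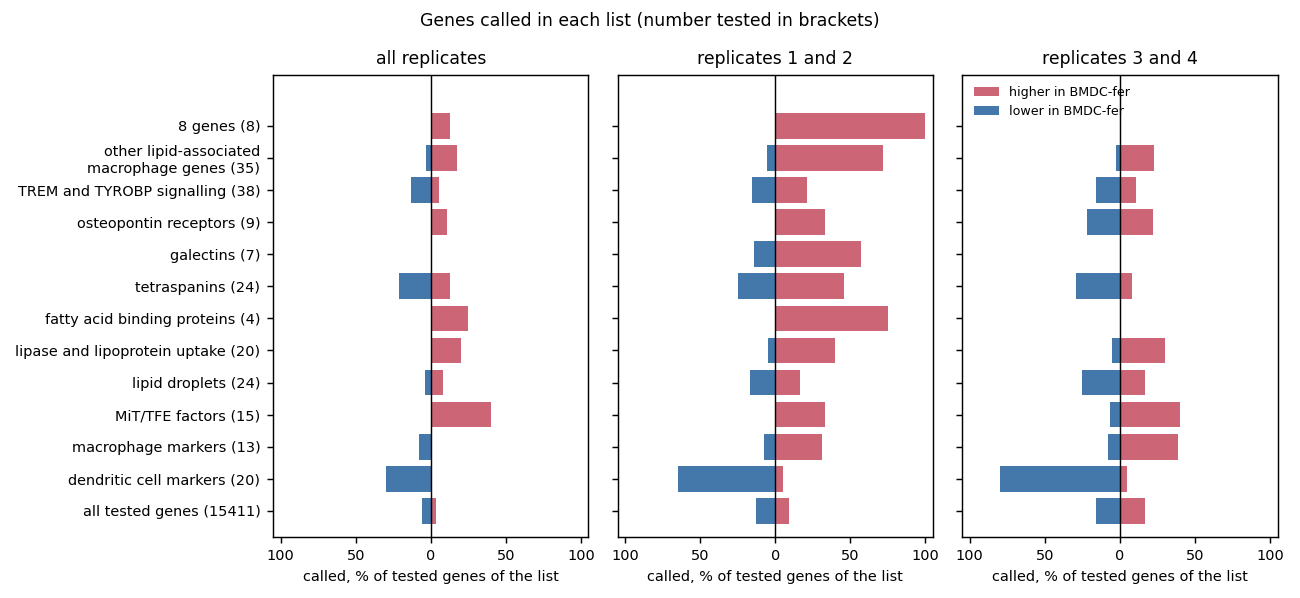
Share of the tested genes of each list that was called higher (right, red) or lower (left, blue) in BMDC-fer, in percent, over all replicates and within each replicate pair, with all 15411 tested genes as the bottom bar. The bar of the 8 genes reaches 8 of 8 in replicates 1 and 2 and 0 of 8 in replicates 3 and 4, whereas that of the MiT/TFE list stays at 5 or 6 of 15 in all panels.

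Markers of some cell types moved with the groups too. Of 20 dendritic cell markers, 0 were called higher and 6 lower over all libraries, with a median log2 fold change of -1.35. Of all tested genes, 5.91% were called lower. The highest value of the list, and the only positive one, was 0.99, for Clec9a. For these 20 markers the calls were 1 higher and 13 lower in replicates 1 and 2 (background 12.9% lower). They were 1 and 16 in replicates 3 and 4 (16.2%), and 1 and 14 with the replicate block (8.13%). Among them Fscn1, which bundles actin in mature dendritic cells, fell from 112 to 133 CPM to 6.62 to 19.4 CPM and the migration receptor gene Ccr7 from 98.8 to 167 CPM to 9.89 to 26.5 CPM, while Itgax had a log2 fold change of -0.10. Of 13 tested macrophage markers, 0 were called higher over all libraries by edgeR or DESeq2 (3 at an unadjusted p under 0.05 in edgeR) and 1 lower, Adgre1 (F4/80, log2 fold change -0.81). EdgeR called 1 higher with the replicate block, 4 higher in replicates 1 and 2 (background 9.36%) and 5 higher in replicates 3 and 4 (background 16.8%), with 1 lower each time. The list summed to 2389 to 3725 CPM in BMDC and 2884 to 4884 CPM in BMDC-fer, with a median log2 fold change of 0.46. Within untreated BMDC the macrophage sum was 3400 and 3725 CPM in replicates 1 and 2 and 2574 and 2389 CPM in replicates 3 and 4, an order opposite to that of the 8 genes. The 13 neutrophil markers gave 6 called lower and 0 higher (10 and 0 with the replicate block, 4 and 1 in the first replicate pair, 9 and 0 in the second), and their sum, carried mostly by Mmp8, was 617 to 1261 CPM in BMDC and 743 to 1466 CPM in BMDC-fer. The part of these cell types in the values of the 8 genes was not tested.

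The engulfed line is a T-cell line, so mouse T cell markers were also read. Of 21 such genes, 9 were at or under 3 counts in every BMDC-fer library, and 6 were tested, of which 0 were called higher and 2 lower over all libraries, 1 and 3 in the first replicate pair, and 0 and 3 in the second. Their sum was 44.3 to 48.6 CPM in BMDC and 36.2 to 57.3 CPM in BMDC-fer and was mostly Cd28. The part of reads from the human Jurkat cells in the mouse counts was not tested. Of 3 tested mast cell and basophil markers, of 1 tested B cell, NK cell or erythroid marker and of 12 reference genes, 0 were called in either direction by edgeR over all libraries. At an unadjusted p under 0.05, 3, 0 and 0 of them were lower and 0 higher, and DESeq2 called 2 of the mast cell and basophil markers lower. EdgeR called 1 of these lower with the replicate block, 1 in replicates 1 and 2 and 2 in replicates 3 and 4. Of the reference genes it called 1 higher in replicates 1 and 2, whereas replicates 3 and 4 gave 1 higher and 1 lower.

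**Figure D4:**
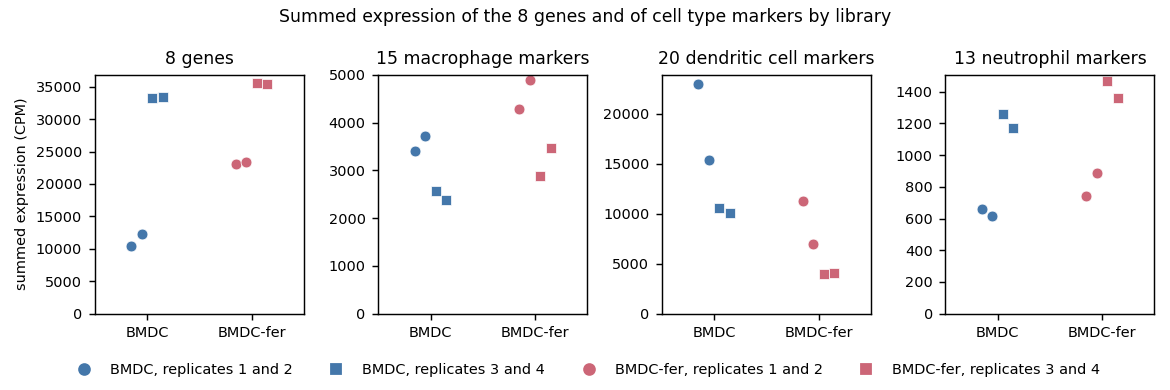
Summed CPM (vertical axes, linear from 0) of the 8 genes and of the macrophage, dendritic cell and neutrophil marker lists in each library, with replicates 1 and 2 as circles and replicates 3 and 4 as squares. The 8 genes sum to 10454 and 12321 CPM in BMDC replicates 1 and 2 and to 33255 and 33440.5 CPM in BMDC replicates 3 and 4, the dendritic cell sum spans 10042 to 22993 CPM in BMDC and 4005 to 11304 CPM in BMDC-fer, and the macrophage sums of the groups overlap.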

How the data were processed

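Mouse transcripts were measured in 4 BMDC and 4 BMDC-fer libraries. The submitters' processing notes name CASAVA, HISAT2, featureCounts and DESeq2 and the build mm10. The authors deposited raw counts per mouse gene, without normalization, and strand and multimapping settings are not given in the sources used here. Symbols came from GENCODE M21 for 55141 of 55487 identifiers. Counts were fitted in R 4.3.3 with edgeR 4.0.16 (TMM, filterByExpr with a count minimum of 10, quasi-likelihood test, group as the term). CPM are counts scaled to the TMM-adjusted library size. Differences of the group effect between replicates 1 and 2 and replicates 3 and 4 came from an interaction term over all 8 libraries, whose within-pair values share 1 estimate of the spread. DESeq2 1.42.0 was an alternative. The scripts were tested on simulated data.

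Same-numbered libraries deviated together from their group means (r = 0.446, 0.355, 0.313 and 0.343), but libraries of the other number in the same replicate pair did so as well (0.287 and 0.186 in replicates 1 and 2, 0.343 and 0.380 in replicates 3 and 4). Each same-number r being over 0.1, the replicate number was also fitted as a block. Chi-square per gene was 9.00 to 40.9 within replicate pairs and 133 to 346 across them, so no library was counted as a duplicate. The 8 genes and the gene lists were chosen with earlier results of these data known. Named genes of other lists are the called genes with a mean of at least 10 CPM, up to the 4 with the largest change, and each list's highest or lowest gene, and further called genes were named after their values had been seen. Promoter sequences are from RefSeq (GRCm38.p6). Some genes that this rule covers are not reported here.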

Additional observations from a re-analysis of the deposited data

Results flagged for a closer look

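For each of the 8 genes, the group effect, BMDC-fer against BMDC, was not the same size in the replicate pairs 1 and 2 and 3 and 4, by the interaction term of edgeR (adjusted p up to 0.05, Benjamini-Hochberg). The effect in replicates 3 and 4 minus that in replicates 1 and 2 was -1.77 on the log2 scale for Spp1, -0.99 for Trem2, -0.88 for Cd9, -0.87 for Lgals3, -0.84 for Fabp5, -0.77 for Gpnmb, -0.77 for Lpl and -0.72 for Tyrobp. Such a difference was found for 37.8% of all tested genes. The split into these pairs was seen in the same data, and the p-values rest on a spread within pairs that may be partly technical.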

How the results depend on the processing

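The pooled log2 fold changes of Gpnmb, Trem2, Lgals3, Cd9, Fabp5 and Lpl kept their sign under all alternatives, that of Spp1 turned to -0.10 and that of Tyrobp to -0.054 in replicates 3 and 4, and that of Spp1 also without 1 library. In replicates 1 and 2, genes not called over all libraries became called, at 0.92 for Gpnmb, 1.67 for Spp1, 1.28 for Trem2, 0.66 for Tyrobp, 1.06 for Lgals3, 1.04 for Cd9 and 0.92 for Lpl. With the replicate pair as a covariate, an alternative chosen after seeing the data, Trem2 (0.78), Lgals3 (0.62) and Cd9 (0.60) were called and Fabp5 kept its call (0.74), and DESeq2 called Lgals3 (0.58). The call of Fabp5 was lost with the replicate block (0.75), against the fold threshold itself (0.74, adjusted p = 0.617 from edgeR) and in replicates 3 and 4 (0.32).

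Without 1 library the pooled log2 fold change ranged from -0.24 to 0.68 for Spp1 and from 0.64 to 0.85 for Fabp5, and the difference between replicate pairs from -1.0004 to -0.55 for Gpnmb. The number of the 8 genes called higher was 2 with DESeq2, 0 with the block, 4 with the covariate, 0 against the fold threshold, 8 in replicates 1 and 2, 0 in replicates 3 and 4, and 0 to 1 without 1 library. Over all tested genes, 889, 1191, 41, 1442 and 2589 were called higher with DESeq2, the covariate, the fold threshold, replicates 1 and 2 and replicates 3 and 4, and 1526, 1624, 184, 1993 and 2503 lower. Without 1 library 194 to 543 were called higher and 371 to 897 lower. The block changed no other call of the 8 genes. The causes were not tested. Other scalings moved the median of all tested genes by less than 0.05. Where a fit left a single library in a replicate pair, that library was assumed to vary like the others. Depth did not limit the 8 genes, each of which was above 131 CPM in every library.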
